A study of Mus musculus with 8 samples.

Results

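The genes described here are those of the mouse major histocompatibility complex (MHC) whose names begin with H2-, together with 8 genes of antigen processing, assembly and their regulation: B2m, Tap1, Tap2, Tapbp, Erap1, Cd74, Ciita and Nlrc5. They were taken by name from the deposited table, and 39 of its 26848 genes met the rule. All 39 had a count above 0 in at least 1 library, so none was dropped. By class, 21 were class I heavy chains or class I-like H2 genes, 9 were class II genes and 8 were the processing, assembly and regulatory genes. The remaining gene, H2-Ke6, lies in the locus but encodes an enzyme and belongs to neither class.

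RNA was measured in RAW264.7 cells, a macrophage-like line made by Abelson virus transformation in a BALB/c mouse. The cells were grown either on smooth polyetheretherketone (PEEK), a polymer used in bone implants, or on PEEK carrying a nano/microstructured surface. Each surface had 4 libraries, called smooth 1 to 4 and structured 1 to 4 by the numbers in the library names. All 8 came from this 1 line, and the labels name no further treatment, genotype or time in culture. The titles number 3 of the 4 libraries of each surface as biological replicates, and no label says what was separate between them, such as the culture. The p-values speak of variation among these 8 libraries, which may in part be technical.

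Class I molecules are pairs of a heavy chain and β2-microglobulin, the product of B2m. They carry peptides cut in the cytosol to the cell surface, where CD8 T cells and natural killer cells read them. The TAP1 and TAP2 proteins form the transporter that moves peptides into the endoplasmic reticulum, tapasin (Tapbp) bridges it to empty heavy chains, and ERAP1 trims the peptides there. NLRC5 is the transcriptional co-activator of the class I genes. Class II molecules are pairs of α and β chains that carry peptides from the endosome to CD4 T cells. Cd74 encodes the invariant chain that escorts them, H2-DM exchanges the peptide, and CIITA is the co-activator of class II genes. In macrophages, class II is known to be low at rest and induced by interferon-γ.

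Class I promoters are known to carry an NF-κB element, an interferon-stimulated response element (ISRE) and an X and Y box module. The windows of 4 genes are shown because they belong to the classical heavy chains H2-K1 and H2-D1, to H2-T23 and to the light chain, which the comparison of surfaces sets side by side. Each runs 5′ to 3′ over the 250 bases before a RefSeq start of the gene on build GRCm38.p6. Capitals mark the letters GGGGATT (an NF-κB core) in H2-K1 and H2-D1, and GAAANNGAAA (an ISRE core, on either strand) in H2-T23 and B2m.
H2-K1, chr17:34000348-34000597, minus strand: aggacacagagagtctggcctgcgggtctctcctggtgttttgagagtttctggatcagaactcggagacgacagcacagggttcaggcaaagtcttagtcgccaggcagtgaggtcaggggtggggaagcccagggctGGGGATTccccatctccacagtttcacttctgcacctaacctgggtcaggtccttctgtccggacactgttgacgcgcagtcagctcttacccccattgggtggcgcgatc
H2-D1, chr17:35262844-35263093, plus strand: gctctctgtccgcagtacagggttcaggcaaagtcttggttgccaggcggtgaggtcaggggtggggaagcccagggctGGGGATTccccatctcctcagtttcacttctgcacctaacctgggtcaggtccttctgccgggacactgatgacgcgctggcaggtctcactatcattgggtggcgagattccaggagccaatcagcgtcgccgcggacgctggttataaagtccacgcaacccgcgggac
H2-T23, chr17:36032702-36032951, minus strand: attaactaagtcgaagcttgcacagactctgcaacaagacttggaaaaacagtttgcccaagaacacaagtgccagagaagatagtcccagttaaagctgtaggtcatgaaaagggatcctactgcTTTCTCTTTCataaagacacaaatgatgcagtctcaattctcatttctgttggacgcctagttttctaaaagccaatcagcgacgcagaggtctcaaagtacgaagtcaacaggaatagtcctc
B2m, chr2:122147437-122147686, plus strand: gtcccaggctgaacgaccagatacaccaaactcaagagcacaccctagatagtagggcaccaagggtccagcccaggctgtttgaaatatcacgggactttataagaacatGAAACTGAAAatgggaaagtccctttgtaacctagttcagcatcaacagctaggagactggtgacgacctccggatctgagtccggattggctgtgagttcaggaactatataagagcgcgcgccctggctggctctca

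RefSeq windows were found for 25 of the 39 genes, 13 of them class I, and H2-T24 is not among them. Both strands were searched. The letters GGGGATT were in the windows of 7 of the 13 class I genes (H2-D1, H2-K1, H2-Q4, H2-Q6, H2-Q7, H2-T22 and H2-T3), against 2.76% of all 32851 windows of the same length. In the printed H2-K1 window they lie 111 to 105 bases before the start, and in that of H2-D1 171 to 165 bases before it. Another RefSeq start of H2-K1 puts them 125 to 119 bases before it. The H2-D1 window lies inside the span given for the gene below, so such distances depend on the start used. The ISRE letters were in 2 of the 13 (H2-T22 and H2-T23) and in B2m, against 2.98% of all windows. In H2-T23 they lie 124 to 115 bases before the start and in B2m 139 to 130 bases before it. The annotated span of H2-T23 ends at 36032855, so part of its window, the marked letters included, lies inside that span. Only exact letters were counted, so a near match such as tttcacttct in the H2-K1 and H2-D1 windows was not. A window without a match may therefore still hold such an element. The Y box letters CCAAT were in 11 of the 13, against 33.8% of all windows, and TGACG, the core of the X2 box, in 7 of the 13, against 17.8%. These motifs can overlap other letters searched, and a match is a description of the sequence.

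Per length, the light chain was the most abundant of these transcripts. B2m stood at 273 ± 10.9 FPKM on smooth PEEK and 276 ± 11 on structured PEEK (mean ± SD, n = 4 each), where FPKM is fragments per kilobase of transcript, scaled to library depth. That was 246% of the summed FPKM of the 21 class I heavy chain genes over all libraries. Of that heavy chain sum, H2-D1 made up 47.7%, H2-M3 18.0%, H2-K1 13.4%, H2-Q4 4.42% and H2-T23 3.59%. H2-D1 and H2-K1 encode classical, peptide-presenting heavy chains, and H2-M3 presents formylated peptides. H2-D1 ranged from 50.8 to 56.9 FPKM over the 8 libraries, H2-M3 from 18.3 to 22.0 and H2-K1 from 13.1 to 16.9, so the ranges of these 3 genes do not overlap. H2-Q4, H2-T23 and H2-T24 averaged 4.93, 4.01 and 3.80 FPKM over all libraries, and their ranges overlap one another. H2-T22, H2-Q1 and H2-Q6 followed at 2.98, 2.63 and 2.29 FPKM, again with overlapping ranges. Of the other genes, Cd74 averaged 42.9 FPKM, Tapbp 26.5, Erap1 8.24, Tap2 4.71, Nlrc5 2.16 and Tap1 2.08.

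**Figure D1:**
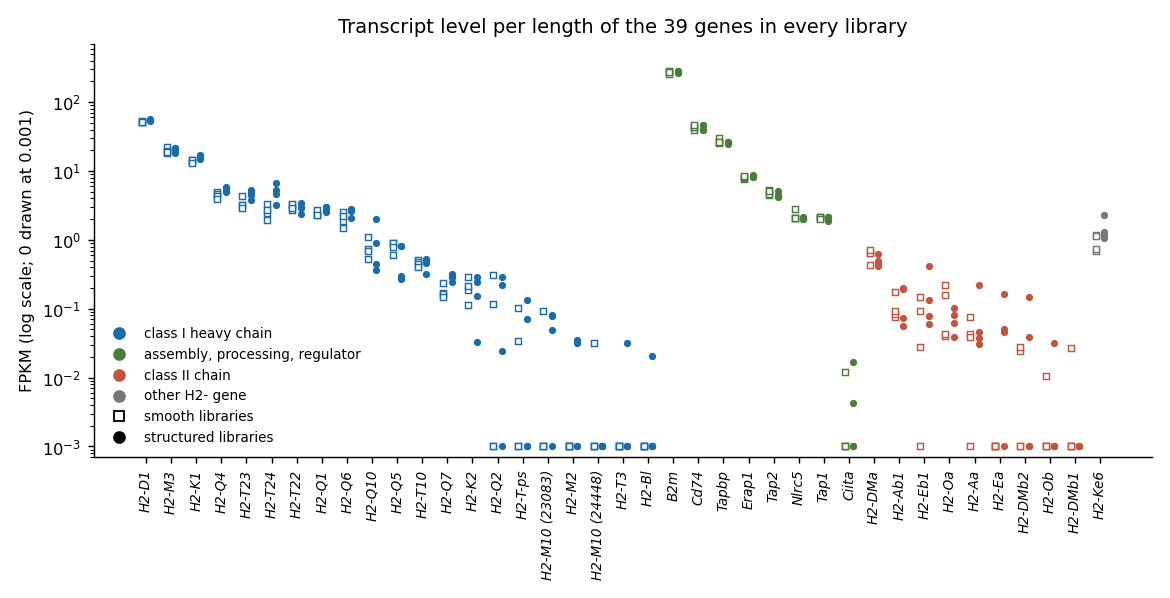
FPKM (log scale) of the 39 genes in every library, open squares for smooth and filled circles for structured PEEK, grouped by class; values of 0 are drawn at 0.001, and the H2-M10 genes are told apart by the last digits of their IDs. B2m and H2-D1 are at the top, while every class II gene stays at or below a mean of 0.556 FPKM.

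Between the surfaces, H2-K1 and H2-T24 were called higher on structured PEEK and no member was called lower. Of the 27 members with enough counts to test, 2 were called higher at a Benjamini-Hochberg adjusted p under 0.05 (edgeR quasi-likelihood test over 16006 genes), both of class I. Over all genes tested, 1.01% were called higher and 2.75% lower. With edgeR, 7 of the 27 (25.9%) had an unadjusted p under 0.05, against 18.7% of all genes. All 7 were higher, a direction that 8.14% of all genes took at that p. DESeq2 called 3 members higher (11.1%, against 3.45% of all genes) and 0 lower (against 5.5%). With voom 2 members were higher and 0 lower, against 151 and 437 of the 16006 genes. The groups did not overlap, all structured libraries lying above all smooth ones, for 4 members (H2-K1, H2-D1, H2-Q4 and H2-Q7), against 5.19% of all genes, and 0 members lay wholly below, against 7.03%. The median log2 fold change (structured minus smooth) was 0.23 over the 15 tested class I genes, -0.04 over the 7 tested processing genes and 0.01 over all genes. These medians rest on genes that passed a filter on low counts.

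**Figure D2:**
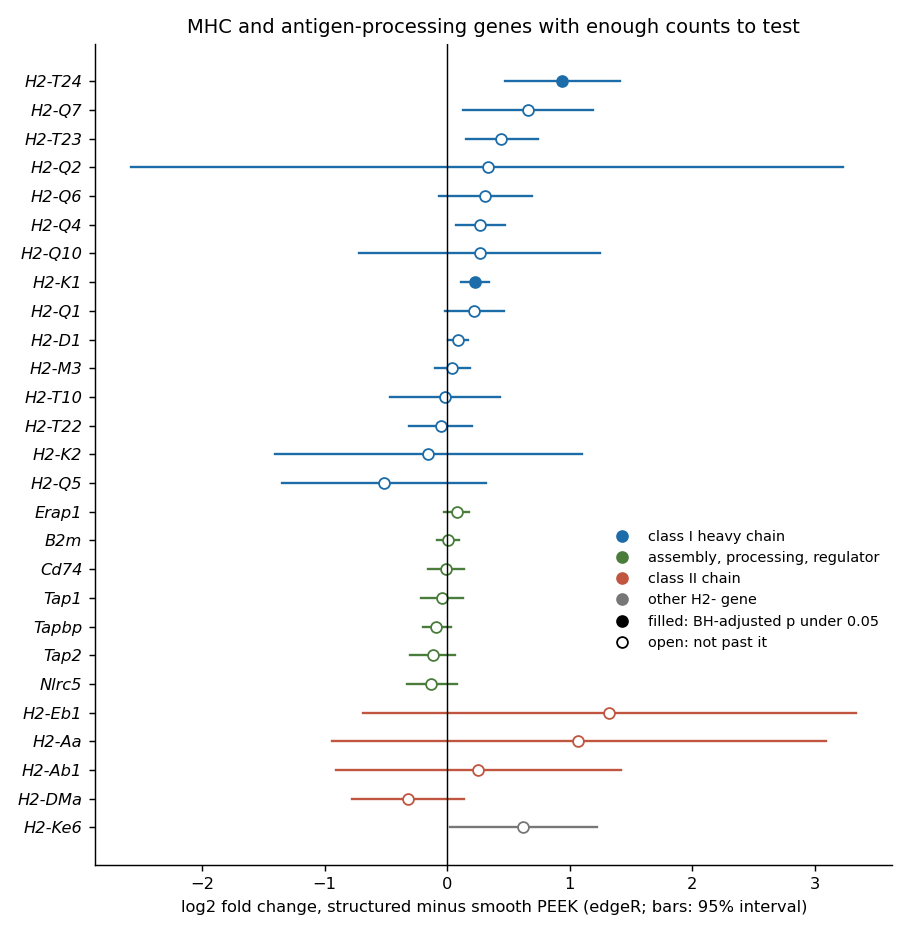
Log2 fold change (structured minus smooth) of the 27 tested genes with the 95% interval from edgeR, coloured by class, filled where the adjusted p is under 0.05. H2-T24 at 0.94 and H2-K1 at 0.23 are filled, and the processing genes lie between -0.13 and 0.08.

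H2-K1 lies on chromosome 17 at 33996017 to 34000347 (minus strand, in the coordinates of the table, which names no build). It is the classical heavy chain of the K region, and its promoter is the first one printed. In counts per 1000000 counts of the library (CPM), it measured 44.3, 42.2, 45.2 and 41.7 in smooth 1 to 4 and 47.2, 53.6, 51.1 and 51.1 in structured 1 to 4. Every structured library was above every smooth library. The means were 43.4 ± 1.66 and 50.7 ± 2.67 CPM (SD, n = 4 each), a log2 fold change of 0.23 ± 0.05 (SE; 95% interval 0.11 to 0.34; edgeR adjusted p = 0.0384). The change kept its direction in 20 of 20 alternatives, at 0.20 to 0.26, but passed the threshold in 6 (adjusted p from 0.00242 to 0.177). Leaving out any 1 library ended the call, except structured 1 (adjusted p = 0.0346 without it).

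H2-D1 is the classical heavy chain of the D region (chromosome 17, 35262730 to 35267499, plus strand). It measured 137, 145, 141 and 144 CPM on smooth PEEK and 151, 149, 156 and 149 CPM on structured PEEK. The groups did not overlap, yet the difference was small, 142 ± 3.52 against 151 ± 3.27 CPM, and did not pass the test (log2 fold change 0.09 ± 0.03, 95% interval 0.01 to 0.17, edgeR adjusted p = 0.182). H2-K1 and H2-D1 share sequence: 8.11% of the 50-base words of an H2-K1 transcript of GENCODE M21, and 14.3% of those of H2-D1, occur in another gene. The line carries BALB/c alleles while mouse references come from C57BL/6, so how reads were shared between near-identical class I genes is uncertain.

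H2-T24 showed the highest fold change of the tested class I genes. It is a gene of the T region that encodes a class I-like chain (chromosome 17, 36005695 to 36020560, minus strand). It measured 7.64, 5.77, 6.30 and 4.57 CPM in smooth 1 to 4 and 10.9, 15.8, 7.55 and 12.3 CPM in structured 1 to 4. Structured 3 was just below smooth 1, so the groups overlap by 1 library, while the other structured libraries were above all smooth ones. The means were 6.07 ± 1.27 and 11.6 ± 3.43 CPM, a log2 fold change of 0.94 ± 0.21 (95% interval 0.47 to 1.41, edgeR adjusted p = 0.0367). The call was lost without smooth 2, 3 or 4 or without structured 1, 2 or 4 (adjusted p from 0.0701 to 0.110) and kept in 8 of 20 alternatives. The log2 fold change was 0.71 to 1.27 over all 20. Its annotated span overlaps A930015D03Rik on the opposite strand, which was at 0.92 ± 0.25 (adjusted p = 0.0691). No source used here gives the strand setting of the counting, so reads of these overlapping genes may not be told apart.

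H2-T23 encodes Qa-1, the heavy chain read by the NKG2A receptor of natural killer cells. Its levels were 13.1, 9.89, 10 and 8.98 CPM on smooth PEEK and 16.2, 15.3, 11.6 and 13.9 CPM on structured PEEK. Smooth 1 was above structured 3, and the log2 fold change of 0.44 ± 0.14 (95% interval 0.15 to 0.74) did not pass the test (edgeR adjusted p = 0.0976). It passed with DESeq2 (adjusted p = 0.0126), with edgeR without smooth 1 (0.57, adjusted p = 0.0335) and with edgeR without the 3 libraries highest in hepatocyte markers (0.71, adjusted p = 0.0189). Smooth 1 held the highest summed hepatocyte and muscle marker levels of the smooth libraries. The annotated span of H2-T23 also overlaps A930015D03Rik on the opposite strand, and 15% of the words of H2-T23 occur in another gene. Its counts therefore carry the same uncertainty.

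None of the Q region genes passed the test, and for 2 of them the groups did not overlap. H2-Q4 measured 13.6, 12.8, 12.3 and 11 CPM on smooth PEEK and 15.5, 14.3, 13.7 and 16.3 CPM on structured PEEK, with no overlap (log2 fold change 0.27 ± 0.09, edgeR adjusted p = 0.128). H2-Q7 was lower in level, at 0.766, 0.763, 0.698 and 1.10 against 1.33, 1.12, 1.34 and 1.46 CPM, and also did not overlap (0.66 ± 0.24, adjusted p = 0.163). Smooth 4 lay apart from the other smooth libraries for H2-Q7. H2-Q1 (0.22, adjusted p = 0.323) and H2-Q6 (0.31, adjusted p = 0.378) overlapped between the groups, and H2-Q5 was at -0.52 ± 0.38 (adjusted p = 0.536). Reads of these genes are hard to separate: 22.0% of the words of H2-Q4, 27.1% of those of H2-Q7, 32.0% of those of H2-Q6 and 35.4% of those of H2-Q5 occur in another gene.

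H2-M3 did not pass the test, at 33.2, 30.5, 28.7 and 29.3 CPM against 33.2, 32.9, 28.0 and 31.1 CPM (0.04, 95% interval -0.10 to 0.19). It shares 0.576% of its words with another gene. H2-T22 and H2-T10, ligands of γδ T cells, were at -0.05 and -0.02. Of their words, 35.8% and 31.6% occur in another gene, and the span of H2-T22 also overlaps A930015D03Rik. H2-K2 and H2-Q2 were near the counting floor, at means of 0.380 and 0.252 CPM on smooth PEEK, and their intervals span from -1.41 to 1.10 and from -2.58 to 3.23. Another 6 class I genes were not tested for low counts: H2-Bl, H2-T-ps, H2-T3, H2-M2 and both H2-M10 genes, none above 0.162 CPM in any library.

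**Figure D3:**
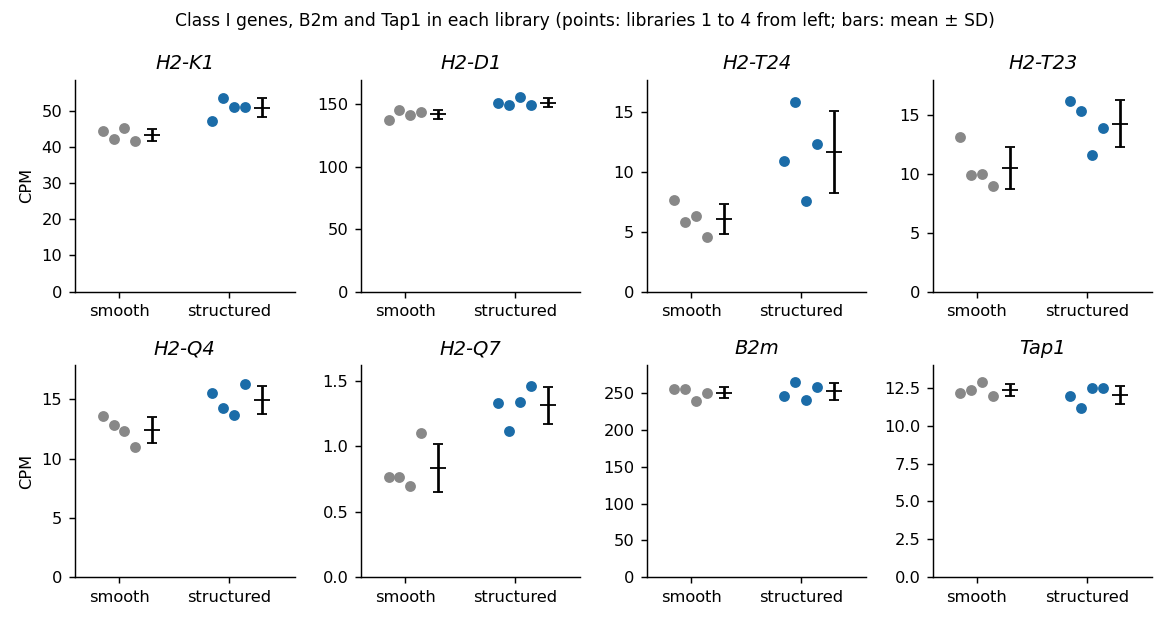
CPM of 6 class I genes, B2m and Tap1 in each library (points, libraries 1 to 4 from left) with mean ± SD. For H2-K1, H2-D1, H2-Q4 and H2-Q7 all structured points lie above all smooth ones, for H2-T24 and H2-T23 the groups overlap, as they do for B2m and Tap1.

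Summed over the 21 class I genes, the level was 281, 280, 274 and 270 CPM on smooth PEEK and 308, 311, 302 and 312 CPM on structured PEEK. The sums did not overlap, with means of 276 ± 5.14 and 308 ± 4.23 CPM and a ratio of 1.12. Without H2-K1 and H2-D1 the ratio was 1.17 (90.7 ± 6.63 against 106 ± 7.38 CPM) and the groups overlapped. In bulk RNA, fewer cells of a type and less RNA per cell cannot be told apart.

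The light chain and the genes that load class I showed no call. B2m measured 256, 256, 240 and 251 CPM on smooth PEEK and 246, 266, 241 and 259 CPM on structured PEEK, a log2 fold change of 0.01 with a 95% interval of -0.08 to 0.10. For Tap1 the interval was -0.21 to 0.13 around -0.04, for Tap2 -0.30 to 0.06 around -0.12, for Tapbp -0.20 to 0.03 around -0.09 and for Erap1 -0.03 to 0.18 around 0.08. Nlrc5 stood at 25.1, 18.9, 19.0 and 18.9 CPM on smooth PEEK and 18.4, 19.3, 19.2 and 18.0 CPM on structured PEEK (-0.13, 95% interval -0.33 to 0.08), with smooth 1 above the other 7 libraries. Of the 7 tested processing genes, Cd74 included, edgeR called 0, 0 had an unadjusted p under 0.05, and DESeq2 and voom called 0. Summed, Tap1, Tap2 and Tapbp were at 138 ± 5.87 CPM on smooth and 130 ± 4.11 CPM on structured PEEK.

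Transcripts of the class II α and β chains H2-Aa, H2-Ab1, H2-Eb1 and H2-Ea were near the detection limit on both surfaces, while the invariant chain was abundant. Cd74 measured 70.2, 77.2, 78.5 and 83.2 CPM on smooth PEEK and 81.8, 71.3, 83.1 and 70.3 CPM on structured PEEK (-0.01, 95% interval -0.16 to 0.14), with overlapping groups. Against this, H2-Aa, the α chain of I-A, measured 0.180, 0, 0.310 and 0.166 CPM, then 0.909, 0.192, 0.156 and 0.124 CPM. Its β chain H2-Ab1 measured 0.225, 0.523, 0.264 and 0.277 CPM, then 0.563, 0.590, 0.227 and 0.155 CPM. H2-Eb1, the β chain of I-E, measured 0, 0.198, 0.062 and 0.319 CPM, then 0.880, 0.280, 0.171 and 0.140 CPM. Structured 1 had the highest value of H2-Aa and H2-Eb1. A floor of 3 fragments corresponds to 0.166 to 0.186 CPM per library, so much of this lies at or under it. H2-Ea was at 0 in all smooth libraries and at most 0.188 CPM in structured ones. Ciita was at 0 in 5 of the 8 libraries and at most 0.173 CPM.

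H2-DMa, the α chain of the peptide exchange factor, was the most abundant class II gene, at 2.40, 2.46, 1.69 and 2.73 CPM and then 1.83, 2.35, 1.55 and 1.69 CPM (log2 fold change -0.32 ± 0.21, edgeR adjusted p = 0.467). Of the 9 class II genes, 4 were tested (H2-DMa, H2-Ab1, H2-Aa and H2-Eb1), and edgeR called 0, with 0 at an unadjusted p under 0.05 and 0 called by DESeq2 or voom. The median log2 fold change of the 4 was 0.66, and it rests on these low counts. H2-Oa, H2-DMb1, H2-DMb2, H2-Ob and H2-Ea were not tested. The class II sums were 3.2 ± 0.491 CPM on smooth and 3.28 ± 1.01 CPM on structured PEEK. Differences in the H2-A and H2-E chains were not detectable at this depth.

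H2-Ke6, the remaining gene of the locus, measured 2.12, 2.08, 1.29 and 1.37 CPM on smooth PEEK and 4.07, 2.41, 1.92 and 2.13 CPM on structured PEEK (0.62 ± 0.27, adjusted p = 0.253). It shares 96.3% of its words with Gm20427, so its counts cannot be assigned to it alone.

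The partner genes of the class I pathway were read out by lists. Of 6 immunoproteasome and PA28 genes, edgeR called 0 and 3 had an unadjusted p under 0.05, all higher (8.14% of all genes were), with DESeq2 and voom calling 0. Psmb8, Psmb9 and Psmb10 encode the catalytic subunits that make class I-fitting peptides, and their log2 fold changes were 0.13 ± 0.05, 0.33 ± 0.14 and 0.16 ± 0.06 (adjusted p = 0.215, 0.232 and 0.158). For these 3 of the 6 genes all structured libraries lay above all smooth ones, against 5.19% of all genes. Psmb9 overlaps Tap1 on the opposite strand. Of 10 loading partners, edgeR called 1 higher (10%, against 1.01% of all genes) and 0 lower, as did DESeq2 and voom. The edgeR call was Canx, the calnexin chaperone of new heavy chains, at 960 ± 13.5 CPM on smooth and 1069 ± 21.0 CPM on structured PEEK (0.16 ± 0.03, adjusted p = 0.0194). The Canx call was lost without structured 2 (adjusted p = 0.0672) or structured 4 (0.0702), without the 3 libraries highest in hepatocyte markers (0.0928) and after removal of GC and length trends (0.0945).

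Among 13 genes of interferon signalling and class I transcription, edgeR called 1 higher (7.69%, against 1.01% of all genes) and 0 lower (against 2.75%). At an unadjusted p under 0.05, 1 was higher and 5 were lower, against 8.14% and 10.6% of all genes. DESeq2 called 1 higher and 1 lower (3.45% and 5.5% of all genes were), and voom 1 and 0. The 5, named after their values were seen, were Irf8 (-0.18), Jak2 (-0.21), Ifnar2 (-0.14), Irf2 (-0.15) and Jak1 (-0.10), with edgeR adjusted p from 0.140 to 0.264 and overlapping groups. Irf9, the DNA-binding part of the interferon-activated ISGF3 complex, measured 15.9, 14.7, 13.9 and 13.2 CPM on smooth PEEK and 22.3, 23.5, 18.7 and 21.0 CPM on structured PEEK, without overlap (0.57 ± 0.09, edgeR adjusted p = 0.00992), and was called in 20 of 20 alternatives. Irf1, an interferon-induced activator of class I genes, was at -0.05 with no call (adjusted p = 0.873). Of 9 genes of the class II promoter complex, edgeR called 0 higher and 2 lower (22.2%, against 2.75% of all genes). DESeq2 called 1 higher and 2 lower (11.1% and 22.2%, against 3.45% and 5.5% of all genes), and voom 0 and 2. The 2 called by edgeR were Crebbp (-0.22 ± 0.05, adjusted p = 0.0441) and Ep300 (-0.23 ± 0.06, adjusted p = 0.0462), both co-activators that serve many genes. Leaving out any 1 library ended the Crebbp call (adjusted p up to 0.127) and, except structured 1, the Ep300 call (up to 0.131). Rfx5, which binds the X box, was at 0.08 (adjusted p = 0.635).

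Of 11 genes of the class II route, edgeR called 0, with 1 at an unadjusted p under 0.05 in each direction (Sppl2a 0.10 and Ctsb -0.12) and 0 called by DESeq2 or voom. Ctss, the cathepsin that trims the invariant chain, was at 0.02 (adjusted p = 0.902). Of 10 class I-like genes outside the locus, edgeR called 0 and 2 had an unadjusted p under 0.05, both lower. These were Procr (-0.28 ± 0.08, adjusted p = 0.0655) and Cd1d1 (-0.81 ± 0.34, adjusted p = 0.228). DESeq2 called 1 lower (5.5% of all genes were), voom 0.

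Transcripts used as markers of other cell types were detected and differed between libraries. Whether they came from other cells or from the RAW264.7 cells was not tested. The summed level of 10 macrophage markers was 5944 to 6343 CPM on smooth and 6261 to 6415 CPM on structured PEEK. Of 12 neutrophil markers, Camp, Ltf, Retnlg, Cxcr2, Elane and Mpo were not tested for low counts. The 6 tested were all called higher on structured PEEK, against 1.01% of all genes. On smooth PEEK, Ngp and Mmp8 were at 0, S100a9 at most at 0.0601 CPM and Chil3 at most at 0.0693 CPM. These genes passed the low-count filter only through the structured libraries, where they are high. Sums of the 12 were 0.438 to 1.92 CPM on smooth and 16.0 to 81.1 CPM on structured PEEK. Structured 1 had the lowest of these structured sums. Of 10 skeletal muscle markers, 2 were called lower on structured PEEK, against 2.75% of all genes. They were Ckm (-2.65 ± 0.54, edgeR adjusted p = 0.0256) and Atp2a1 (-2.70 ± 0.64, adjusted p = 0.0442). Sums of the 10 were 18.6 to 60.3 CPM on smooth and 15.2 to 21.5 CPM on structured PEEK. Dendritic cell markers summed to 1.43 to 2.12 CPM and 2.39 to 3.25 CPM and B cell markers to 0.651 to 1.79 CPM and 1.21 to 2.67 CPM, with 0 called. Ms4a1, a defining B cell gene, was at 0 in all smooth libraries and measured 0.0865 CPM in structured 1 and 0.062 CPM in structured 4. The part of these marker transcripts' sources in the class I or class II values was not tested.

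H2-Q10, a secreted class I heavy chain known to be made in the liver, varied between libraries of the same surface. It measured 5.00, 2.47, 3.49 and 3.26 CPM in smooth 1 to 4 and 1.70, 2.11, 4.15 and 9.17 CPM in structured 1 to 4 (log2 fold change 0.27 ± 0.45, adjusted p = 0.828). The sum of 12 hepatocyte markers, Alb among them, was 302, 97.8, 87.7 and 68.4 CPM and then 125, 112, 233 and 420 CPM. The 3 libraries with the highest hepatocyte sums, smooth 1, structured 3 and structured 4, had the 3 highest H2-Q10 levels. Over the 8 libraries Pearson's r was 0.898 (exact permutation p = 0.0111, adjusted 0.0221) and Spearman's rho 0.548 (exact permutation p = 0.171, adjusted 0.171), two-sided, adjusted over these 2 coefficients of 1 relation, which was chosen after the values were seen. Without smooth 1 and structured 4, the libraries farthest from the median hepatocyte sum, r was 0.423, so the relation over all libraries rests largely on them. Within the smooth libraries r was 0.878 and within the structured ones 0.994 (n = 4 each). Each of these includes 1 of those 2 libraries. Among the 5 libraries with the lowest hepatocyte sums, H2-Q10 ran the other way: the smooth 3 and 4 libraries, with the lowest sums, had 3.49 and 3.26 CPM, and structured 1, with the highest, had 1.70 CPM. In these 5 the smooth sums all lay below the structured sums, so surface and marker sum cannot be told apart there. Without the 3 libraries together the log2 fold change of H2-Q10 was -0.69 (adjusted p = 0.194). That of H2-K1 stayed at 0.23 but lost its call (adjusted p = 0.177), and that of H2-T24 was 1.27 (adjusted p = 0.0196). How far these transcripts come from other material in the libraries was not tested.

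**Figure D4:**
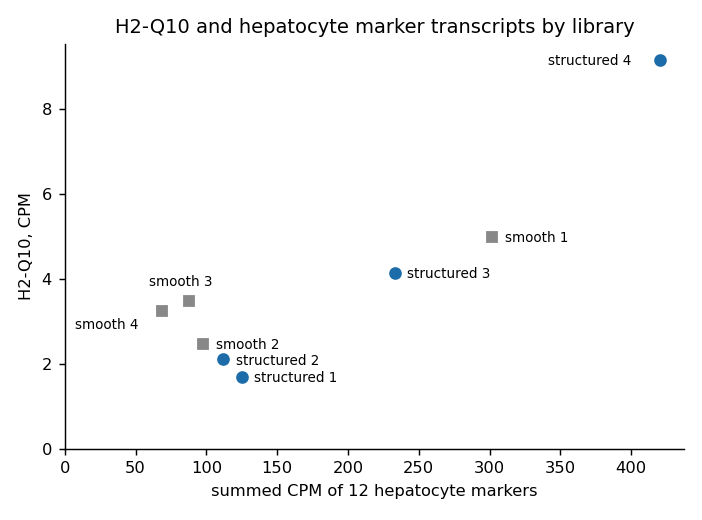
H2-Q10 (CPM) against the summed CPM of 12 hepatocyte markers in each library, squares for smooth and circles for structured PEEK. Structured 4 is highest on both axes, followed by smooth 1 and structured 3, while among the other 5 libraries, at marker sums of 68.4 to 125 CPM, H2-Q10 is lowest in the library with the highest sum.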

How the data were processed

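Total RNA of 8 libraries was sequenced after poly(A) selection and dUTP strand marking, with molecular identifiers in the adapters, per the labels' protocols. The submitters' processing notes name cutadapt 1.9, a trimmer, and HISAT2 2.2.1, an aligner. Not given in the sources used here are the annotation, the build, the counting tool, whether it used strand, and whether identifiers were collapsed. Expected counts and FPKM values were deposited in 1 table, per the file headers. The expected counts are whole numbers whose low values pile up at multiples of 4 (8018 values of 4, 3344 of 3), so 1 fragment was read as 4 units. FPKM values were scaled by the authors to length and depth, per the file headers. Totals ran from 64479829 to 73098735 units.

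Counts were tested with edgeR 4.0.16 (R 4.3.3): filterByExpr with a minimum count of 10, TMM, two-sided quasi-likelihood test, Benjamini-Hochberg at 0.05 over 16006 genes. CPM uses TMM-scaled totals. The floor of 3 fragments is 12 units, and floors cover counting error only. Alternatives used DESeq2 1.42.0, limma 3.58.1 (voom, and log2(FPKM + 0.1, 0.5 or 1)), other filters and scalings, counts divided by 4, removal of GC and length trends, a replicate block, and left-out libraries. The fit was run on simulated counts in which every gene had the same spread between libraries. That run does not test the calls made here. Every tested member is given, context lists by their called genes (up to 4) or the 2 of smallest p, plus Irf1, Psmb8, Psmb9, Psmb10, Rfx5 and Ctss. Some list genes are not reported here by name, though counts and sums of their lists include them. The members and lists were chosen with earlier results of these data known.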

Additional observations from a re-analysis of the deposited data

Results flagged for a closer look

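In 4 of the 54 groups of 4 libraries examined (27 tested genes on 2 surfaces), 1 library lay far from the other 3 by Dixon's criterion, and chance alone flags about 1 in 20 groups. H2-Aa was at 0.909 CPM in structured 1, against 0.124 to 0.192 CPM in the other structured libraries. H2-Q7 was at 1.1 CPM in smooth 4, against 0.698 to 0.766 CPM in the other smooth libraries. Nlrc5 was at 25.1 CPM in smooth 1, against 18.9 to 19 CPM. H2-Q1 was at 8.42 CPM in smooth 3, against 7.06 to 7.15 CPM.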

How the results depend on the processing

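Over all genes, DESeq2 called 553 higher and 880 lower, the removal of GC and length trends 61 and 86, limma on log2 FPKM 89 and 153, 67 and 124, and 65 and 122 (pseudocounts 0.1, 0.5 and 1), no low-count filter 47 and 142, and the fit without the 3 libraries highest in hepatocyte markers, added after seeing the data, 62 and 124. Leaving out 1 library gave 21 to 170 higher and 67 to 427 lower. Of all calls 73.2% were lower, against 61.4% with DESeq2 and 58.5% after removal of GC and length trends. The members called higher, all class I, numbered 0 after removal of GC and length trends, in the 3 limma fits on FPKM, without a filter and with the replicate block, and 0 to 2 with 1 library left out. The cause was not tested. The class I sum ratio stayed at 1.11 to 1.13.

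The replicate number does not pair the libraries: the correlations of same-numbered libraries were -0.0621, 0.0761, -0.00448 and -0.159, and number 2 alone correlated best with its own. With the replicate block, 125 genes were higher and 374 lower, H2-K1 was at 0.23 (adjusted p = 0.0673) and H2-T24 at 0.91 (adjusted p = 0.0667).

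Signs turned for the following values, none of them called. Removing GC and length trends gave -0.01 for H2-M3, 0.03 for Tap1, -0.07 for B2m and -0.05 for Ctss. Without the 3 libraries, Tapbp was at 0.01, H2-T22 at 0.07, H2-Q10 at -0.69, Irf1 at 0.04 and Ctss at -0.01. With voom, H2-Q10 was at -0.02. With 1 library left out, the ranges were -0.06 to 0.03 for Cd74, -0.05 to 1.57 for H2-Aa, -0.13 to 0.03 for H2-T22, -0.01 to 0.04 for B2m, -0.47 to 0.18 for H2-K2, -0.42 to 0.53 for H2-Q10, -0.03 to 0.59 for H2-Ab1, -0.09 to 0.11 for H2-T10, -0.36 to 1.72 for H2-Q2 and -0.01 to 0.04 for Ctss. The H2-A and H2-E chains lie near the floor of 3 fragments, which limits what this depth can show.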

Other observations

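The interval that holds the H2 genes and Tapbp (chromosome 17, 33915899 to 37483552, in the coordinates of the table) contains 173 other genes. Of these, 118 were tested, and edgeR called 0 higher and 5 lower on structured PEEK (4.24% lower, against 2.75% of all genes). At an unadjusted p under 0.05, 10 were higher (8.47%, against 8.14% of all genes) and 16 lower (13.6%, against 10.6%). DESeq2 called 3 higher (2.54%, against 3.45%) and 7 lower (5.93%, against 5.50%), and voom 0 and 5. These shares are near those of all genes. Their median log2 fold change was 0.01. The 5 were named after their values were seen. Csnk2b, the regulatory subunit of casein kinase 2, measured 132, 138, 136 and 135 CPM on smooth PEEK and 112, 110, 119 and 115 CPM on structured PEEK (edgeR adjusted p = 0.0098). Lsm2, a subunit of the Lsm ring on U6 RNA (adjusted p = 0.0256), Bag6, a chaperone of tail-anchored proteins (0.0276), Prrc2a (0.0166) and Ppp1r10, a regulator of protein phosphatase 1 (0.0407), were lower as well. In each of the 5, all structured libraries lay below all smooth ones, which their choice by adjusted p on the same values makes likely. Of the 118 tested genes, 9 lay wholly below (7.03% of all genes did) and 5 others wholly above (5.19% of all genes did).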
